A study of Homo sapiens with 24 samples.

Results

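PC3 and NCI-H660 are 2 prostate cancer cell lines that grow without androgen, and the question taken up here is where they answered the same drug differently. PC3 came from a bone metastasis of a prostate adenocarcinoma, and NCI-H660 from a neuroendocrine prostate cancer. Each line was treated for 24 h with DMSO vehicle or with 10 µM I-BET762 (GSK525762A in the labels), a small molecule that keeps BET proteins from binding acetylated histones. Each of these 4 groups holds 2 arrays of separate biological replicates, so 8 of the 24 arrays of the series carry the comparison. A lower concentration of 0.5 µM in the same lines, and arrays labelled LNCaP and VCaP, are given beside it where they bear on a gene. Each line stands for itself: 1 neuroendocrine line and 1 adenocarcinoma line cannot separate tumor type from any other property of the cells.

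The response of a line is the log2 signal at 10 µM minus the log2 signal in vehicle, and the response difference is that of PC3 minus that of NCI-H660. A negative difference therefore means that PC3 went lower, or rose less, than NCI-H660. Of 19775 genes named by the array, 13488 had a mean signal of at least 100 in 1 or more of the 4 groups. A difference was called at a Benjamini-Hochberg adjusted p under 0.1 in limma with a difference of over 1 on the log2 scale, and 685 genes (5.08%) met this. In 421 of them (3.12%) the difference was above 0 and in 264 (1.96%) below 0. Just inside the size threshold lay ATP2B1 at -1.0 when rounded, and just outside it UBE2L6 at 0.9999.

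The balance of the 2 directions depended on how arrays were scaled. Of 1418 called probe sets (2.6%), 63.8% (1.66% of all probe sets) were higher and the others (0.939%) lower in PC3 with the deposited scaling. After quantile normalization this share was 53.1%, and with each array centered on its median it was 42%. The median difference over all probe sets moved with it, from 0.07 to -0.01 and -0.08. The 2 vehicle arrays of NCI-H660 had the highest median signals, and over the 8 arrays the median ran from 80.47 to 100.31. Single genes below are given on the deposited scale, and a direction that another scaling turns is named as such.

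BET proteins read acetylated chromatin and help RNA polymerase II move from pausing into elongation. MYC is a transcription factor whose RNA is short-lived and often depends on BET proteins, and with its partner MAX it binds E-boxes near genes of ribosome assembly, nucleotide synthesis and the cell cycle. Neuroendocrine prostate cancer cells carry secretory granule proteins and neuronal transcription factors, whereas PC3 cells are rich in basal and mesenchymal genes and in NF-kB driven cytokines.

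The arrays fitted these labels. All 9 neuroendocrine markers measured, among them CHGA, SCG3 and INSM1, had a mean signal of at least 100 in NCI-H660 vehicle, against 2 of 9 in PC3 vehicle. Markers chosen for PC3 (CAV1, CD44, PLAU and others) reached that level for 10 of 10 genes in PC3 and 6 of 10 in NCI-H660. None of 4 luminal prostate markers and none of 4 leukocyte markers reached it in either vehicle group. Of 4 endothelial markers 1, PECAM1, reached it in both, with means of 612 in PC3 and 118 in NCI-H660. The summed neuroendocrine signal of NCI-H660 was 28606 and 28497 in vehicle and 18566 and 19274 at 10 µM. In signal units INSM1 had the largest drop, from a mean of 7711 to 1603, followed by ENO2 (10178 to 8378). CHGA, CHGB, NCAM1, SCG2 and DLL3 also had lower means at 10 µM, while SCG3 (2036 to 2164) and SYP (194 to 252) had higher ones. Of 6 fibroblast markers COL1A1 and COL1A2 were at or over 100 in NCI-H660 vehicle, and the list summed to 1533 and 1592 in vehicle and to 455 and 558 at 10 µM. COL1A2 went there from a mean of 1168 to 194 and COL1A1 from 297 to 245. In PC3 vehicle the same 2 markers were at or over 100, COL1A1 at 530 and COL1A2 at 125. The list summed in PC3 to 767 and 693 in vehicle and to 548 and 594 at 10 µM. The part of these shifts in the differences below was not tested.

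The 685 genes fell into classes by what each line did, with a line's own change called at an adjusted p under 0.1 without a fold minimum. Among the 13488 genes, 1951 rose (14.5%) and 1698 fell (12.6%) in PC3, and 2073 rose (15.4%) and 2060 fell (15.3%) in NCI-H660. Among the 685, both changes were called with opposite signs for 102 genes, of which 48 (0.356% of the 13488) fell in PC3 and rose in NCI-H660 and 54 (0.4%) did the reverse. Without a call on the difference itself these counts were 70 and 72. The class also depended on scaling. After quantile normalization 105 genes were opposite, 88 of them among the 102, and after median centering 80 were, 61 of them among the 102. Of the 2 lines, PC3 alone changed for 184 genes, 77 lower and 107 higher. In 24 of the 77 and 13 of the 107, NCI-H660 was under a signal of 100 in vehicle and under treatment. NCI-H660 alone changed for 262 genes, 172 lower and 90 higher. In 40 of the 172 and 5 of the 90, PC3 was under 100 in the same way. Such signals count as not measured, so for these genes a lack of response in the other line was not shown. Another 79 moved the same way by unequal amounts, and for 58 neither change was called although the difference was. These signals are from bulk cultures, in which fewer cells of a kind and less RNA per cell cannot be told apart. For the named genes, a kept call is one on the difference and not on the class. Opposite genes were named in part for large differences, and class counts with each array left out are given at the end. Of 110 called genes named by a fixed rule, 73 kept their call with each of the 8 arrays left out in turn, among them 27 of 30 opposite genes, 21 of 40 of PC3 alone and 19 of 31 of NCI-H660 alone.

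**Figure D1:**
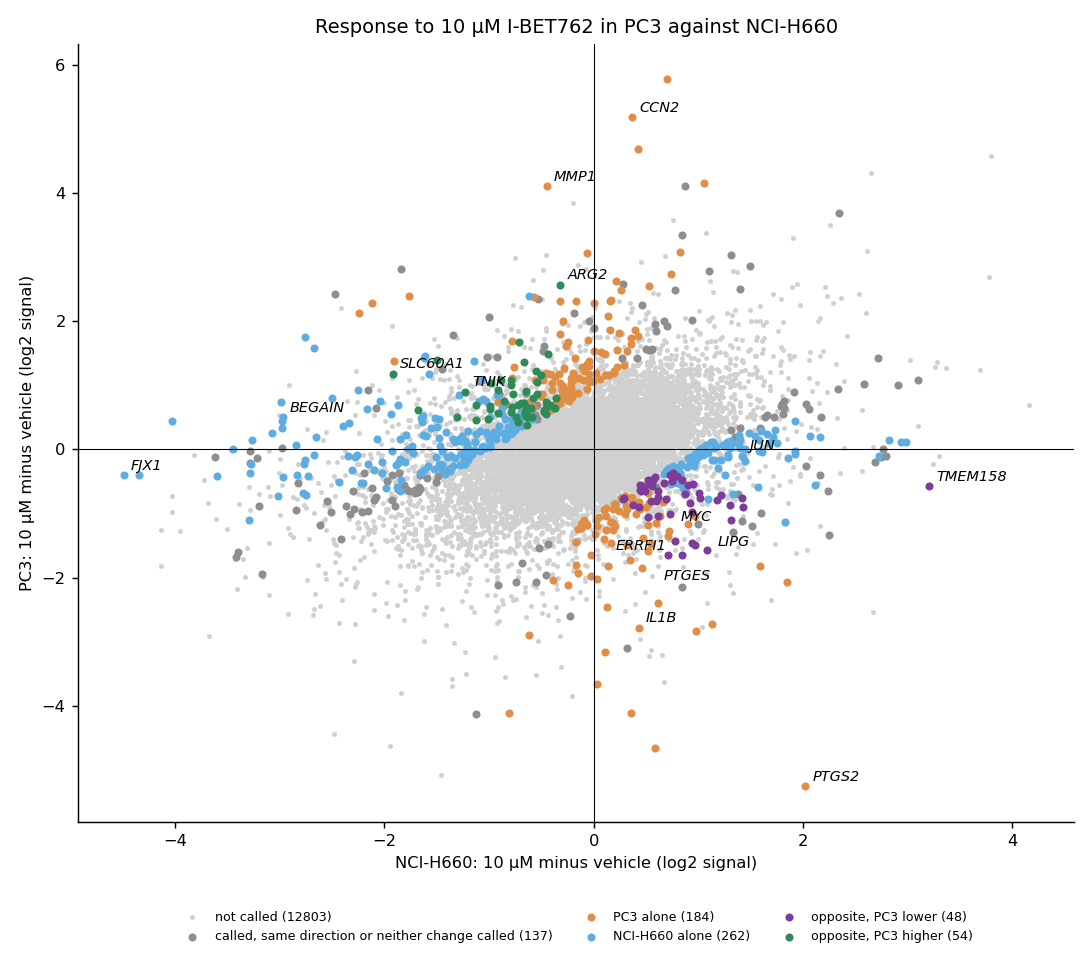
Change in log2 signal at 10 µM I-BET762 in NCI-H660 (horizontal axis) against PC3 (vertical axis) for the 13488 genes at a signal of at least 100. Colors mark the classes of called genes, and the 102 opposite genes lie in the upper left and lower right quadrants.

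MYC was the reference for the opposite class. Its signal in PC3 was 7599 and 7897 in vehicle and 4059 and 3716 at 10 µM, and in NCI-H660 it was 794 and 759 in vehicle and 1359 and 1219 at 10 µM. The arrays of the treated and vehicle groups did not overlap in either line, and MYC in vehicle stood far higher in PC3. The fall in PC3 was -1.0 on the log2 scale (adjusted p = 3.86e-05) and the rise in NCI-H660 was 0.73 (adjusted p = 0.000286). The response difference was -1.73 ± 0.14 (SE, adjusted p = 7.34e-05). At 0.5 µM, against the same vehicle arrays, PC3 had 4280 and 3913 and NCI-H660 887 and 840. PC3 had thus reached its 10 µM level at the lower concentration, while the NCI-H660 change there was 0.15 (adjusted p = 0.605). On the arrays labelled LNCaP and VCaP, MYC fell by 1.96 and by 2.61 on the log2 scale, both opposite in sign to the change in NCI-H660. In a fit of the 8 arrays alone, which leaves 4 residual degrees of freedom, the MYC difference was not called (adjusted p = 0.101).

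Its relatives moved differently. Of 12 genes of the MYC network at or over 100, only MYC and MYCL had a called difference, where 5.08% of all genes did. MYCL, a MYC paralog first found in small cell lung cancer, took the other course from MYC. Its signal rose in PC3 from 305 and 279 to 466 and 480 and fell in NCI-H660 from 1251 and 1347 to 995 and 943, a difference of 1.12 ± 0.17 (adjusted p = 0.00363) that was not called after median centering. The partner MAX had a difference of -0.41 and the antagonist MXI1 one of 0.58, both without a call.

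ERRFI1, a feedback inhibitor of the EGF receptor, took the same course as MYC in both lines. It was at 7084 and 7134 in PC3 vehicle and 2485 and 2580 at 10 µM, and in NCI-H660 at 823 and 934 in vehicle and 1733 and 1700 at 10 µM. The difference was -2.46 ± 0.13 (adjusted p = 1.47e-06). A fall to 2471 and 2563 in PC3 was complete at 0.5 µM, where NCI-H660 had 1217 and 1215.

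TMEM158, a membrane protein induced by RAS signaling, had the largest difference of the class. NCI-H660 went from 90.8 and 110 to 856 and 989, a rise of 9.19-fold, while PC3 went from 5298 and 5315 to 3541 and 3599, and the groups were apart in both lines. The difference was -3.78 ± 0.22 (adjusted p = 2.67e-06). At 0.5 µM NCI-H660 was at 349 on both arrays. On the arrays labelled LNCaP and VCaP it rose by 1.42 and 2.01 on the log2 scale, in the direction of NCI-H660 and not of PC3.

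Next in size among the genes lower in PC3 were LIPG and PTGES. PTGES, which makes prostaglandin E2, was at 3796 and 3998 in PC3 vehicle and 1099 and 1415 at 10 µM, and at 136 and 173 against 219 and 342 in NCI-H660. Its difference was -2.48 ± 0.41 (adjusted p = 0.00501), with the change in NCI-H660 near the limit (adjusted p = 0.0767). LIPG, endothelial lipase, fell in PC3 from 328 and 348 to 124 and 106 and rose in NCI-H660 from 457 and 436 to 943 and 941. LIPG was the single gene of this class with measured changes of more than 2-fold in both lines, 2.93 down and 2.11 up. The tight junction protein CLDN1 fell in PC3 from 1533 and 1452 to 663 and 729, and its rise in NCI-H660 started under a signal of 100 (45.6 and 75 to 160 and 131), at least 1.46-fold. Its second probe set differed in sign, and with the mean of both the call was lost.

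Other members in this direction were NOX5, a calcium-activated NADPH oxidase, at -2.39 ± 0.26, CAPS, the calcium-binding calcyphosine, at -2.33 ± 0.37, and PLK2, a polo-like kinase induced by stress, at -1.94 ± 0.22. All kept their call with each of the 8 arrays left out in turn. TMEM37 (-2.36 ± 0.36) is less certain, since only 1 of its 4 probe sets had this sign and their mean gave 0.68.

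In the other direction SLC60A1, a transporter of the major facilitator superfamily, rose in PC3 from 91.4 and 109 to 177 and 291 and fell in NCI-H660 from 1190 and 1400 to 281 and 412. The difference was 3.11 ± 0.44 (adjusted p = 0.00234), with a rise of 2.33-fold and a fall of 3.74-fold, and all 4 probe sets had the same sign. On the arrays labelled LNCaP and VCaP, SLC60A1 fell as in NCI-H660, with log2 changes of -1.11 and -4.16 (limma adjusted p = 0.0179 and 1.02e-06). BFSP1, the beaded filament protein filensin, also changed by more than 2-fold in both lines. Its signals were 149 and 105 in PC3 vehicle against 346 and 317 at 10 µM, and 279 and 346 in NCI-H660 vehicle against 108 and 111. The lines thus exchanged places, with a difference of 2.91 ± 0.48 (adjusted p = 0.00558).

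ARG2, the mitochondrial arginase, had a difference of 2.89 ± 0.15 (adjusted p = 1.47e-06). PC3 rose from 97.7 and 100 to 604 and 576, at least 5.9-fold, by way of 245 and 244 at 0.5 µM. NCI-H660 held far more of it and lost little, from 8146 and 7207 to 6489 and 5841 (adjusted p = 0.0667 for that change). ARG2 is therefore opposite in sign but mainly a rise in PC3.

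TNIK, a kinase that activates Wnt target genes, changed about equally in both lines. PC3 rose from 303 and 310 to 563 and 586, and NCI-H660 fell from 1014 and 1084 to 466 and 429, a difference of 2.13 ± 0.28 (adjusted p = 0.00158). ID2, an inhibitor of basic helix-loop-helix factors, went from 672 and 749 to 1479 and 1691 in PC3 and from 4013 and 4041 to 2930 and 2751 in NCI-H660 (1.66 ± 0.16, adjusted p = 0.000218). The further named genes of this direction were TRIOBP, an actin-bundling protein, at 2.29 ± 0.22, ADGRV1, an adhesion receptor, at 2.38 ± 0.34, ABAT, the GABA transaminase, at 2.03 ± 0.30, and SH3BGR at 2.02 ± 0.37. The hormone gene ADM (1.78 ± 0.25), the CDK inhibitor CDKN1C (1.56 ± 0.27) and the immunoproteasome subunit PSMB9 (1.30 ± 0.19) belonged here as well. For ADGRV1, 3 of 5 probe sets had this sign and the mean of all 5 was not called.

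**Figure D2:**
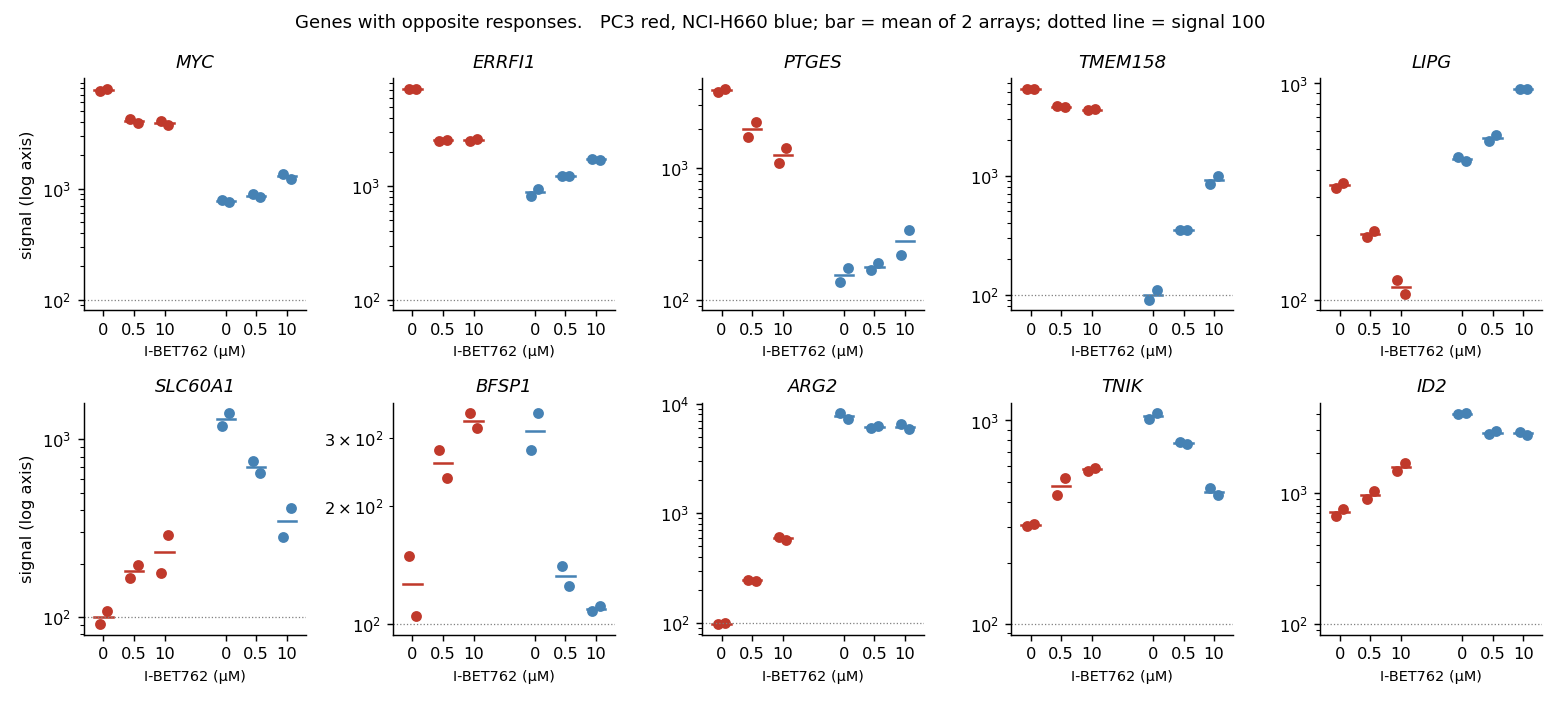
Signal on each array (log axis) of 10 genes with opposite responses, in PC3 (red) and NCI-H660 (blue) at 0 (vehicle), 0.5 and 10 µM I-BET762, with bars at the mean of the 2 arrays. MYC, ERRFI1, PTGES, TMEM158 and LIPG fell in PC3 and rose in NCI-H660, and the other 5 did the reverse.

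Across the 48 genes that fell in PC3 and rose in NCI-H660, the median change was -0.74 in PC3 (range -1.65 to -0.36) and 0.73 in NCI-H660 (range 0.28 to 3.20). Across the 54 others it was 0.69 in PC3 (range 0.38 to 2.57) and -0.66 in NCI-H660 (range -1.92 to -0.32). The median change was therefore below 2-fold in each line and direction. At 0.5 µM, with the vehicle arrays shared, the medians were -0.49 and 0.33 for the first set and 0.46 and -0.38 for the second. All 4 groups were at or over a signal of 100 for 41 of the 48 and 50 of the 54.

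The opposite genes started from unequal levels. In vehicle, 44 of the 48 genes had the higher signal in PC3, and 46 of the 54 had the higher signal in NCI-H660, whereas over all 13488 genes PC3 was the higher in 50.4%. Because the vehicle arrays are part of the contrast, this is a description and was not tested. The median level of PC3 over NCI-H660 for the 48 genes was 1.15 on the log2 scale in vehicle and -0.30 at 10 µM. On the 0.5 µM arrays, which do not enter the contrast, it was 0.45, with 33 of 48 higher in PC3. For the 54 genes these values were -1.23 in vehicle, -0.46 at 0.5 µM and 0.23 at 10 µM.

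**Figure D3:**
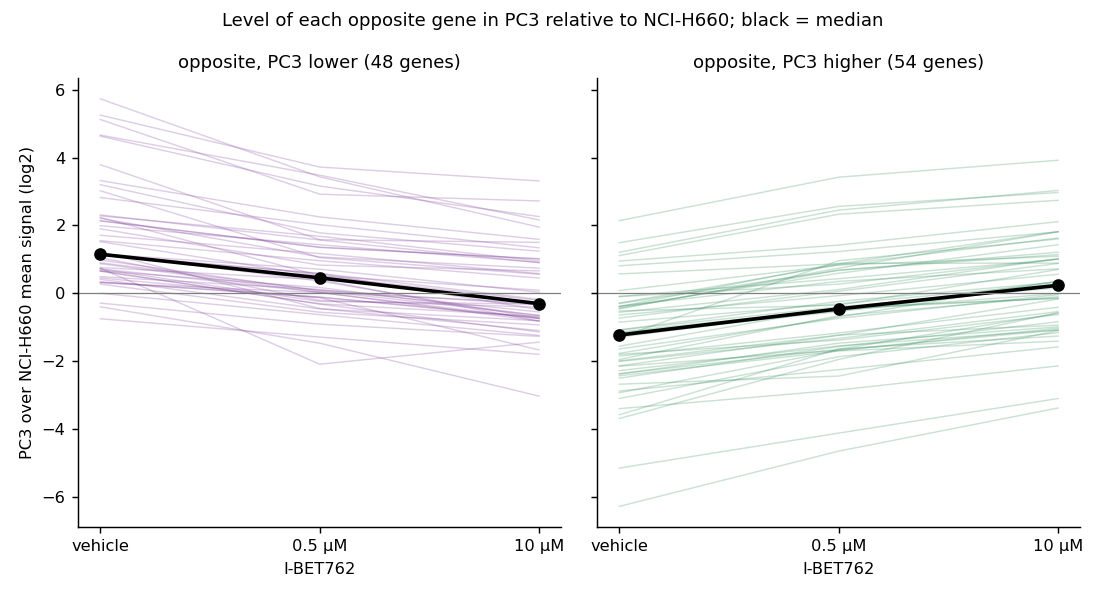
Mean signal of PC3 over NCI-H660 on the log2 scale for each opposite gene in vehicle, 0.5 µM and 10 µM, with the median in black. The median went from 1.15 to -0.30 for the 48 genes lower in PC3 and from -1.23 to 0.23 for the 54 genes higher in PC3.

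The arrays labelled LNCaP and VCaP do not enter the contrast, but they share its estimate of spread and so bear on which genes were called: without them 70 genes were opposite, 57 of them shared. Of the 48 genes, 23 fell and 11 rose on the arrays labelled LNCaP, where 22.7% of all genes fell and 23.7% rose. On those labelled VCaP 22 fell and 7 rose, against 18.5% and 17.3% of all genes. WDR43, LYAR, WDR3 and TIPIN fell on both, as in PC3, whereas ERRFI1 and KLF6 rose on both, as in NCI-H660. Of the 54 genes, 21 rose and 11 fell on the arrays labelled LNCaP and 13 rose and 14 fell on those labelled VCaP. ERG, which is fused and highly expressed in VCaP cells, had a mean vehicle signal of 6984 where the label reads LNCaP and 18.1 where it reads VCaP. That goes against both labels, so the values are given by label only.

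Genes that MYC is known to activate were set against the fall and rise of MYC itself. Of 55 c-Myc targets at or over 100, 6 had a called difference below 0 and 1 above 0, where 1.96% and 3.12% of all genes did. Their median difference was -0.43, against 0.03 for all genes, and 48 of 55 lay below 0. In PC3 24 fell and 1 rose (12.6% and 14.5% of all genes), and in NCI-H660 6 fell and 8 rose (15.3% and 15.4%). The median changes were -0.37 in PC3 and 0.13 in NCI-H660. The median difference was -0.43 after quantile normalization and -0.58 after median centering, where all genes stood at 0.00 and -0.11.

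NDUFAF4, an assembly factor of respiratory complex I, was the c-Myc target with the largest difference. It fell in PC3 from 2541 and 2371 to 1473 and 1584 and rose in NCI-H660 from 1411 and 1269 to 2787 and 2615, so that the order of the lines was turned. The difference was -1.70 ± 0.23 (adjusted p = 0.00169). WDR43, needed for transcription and processing of ribosomal RNA, went from 1646 and 1497 to 835 and 864 in PC3 and from 321 and 326 to 389 and 490 in NCI-H660 (-1.32 ± 0.20, adjusted p = 0.00287). HK2, the hexokinase of fast-growing cells, fell in PC3 from 2609 and 2645 to 1113 and 902, while NCI-H660 was at 8313 and 7582 in vehicle and 9025 and 7994 at 10 µM (-1.49 ± 0.22, adjusted p = 0.00293). With the mean over its 3 probe sets HK2 was not called. RRP12 (-1.65 ± 0.38) lost its call in 2 of 8 fits without 1 array and, with the mean over its 5 probe sets, was -0.48. The lone called gene above 0 was TBRG4 (1.02 ± 0.29), which was not called after either rescaling.

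Nucleolar genes of ribosome assembly and cytosolic ribosomal proteins also lay mostly below 0. Of 59 nucleolar genes 51 had a difference below 0, with a median of -0.35. Called below 0 were 2, LYAR (-1.12 ± 0.18) and WDR3 (-1.08 ± 0.17), where 1.96% of all genes were. In PC3 20 fell and none rose (12.6% and 14.5% of all genes), and in NCI-H660 11 rose and 3 fell (15.4% and 15.3%). LYAR and WDR3 each fell short of a call without 1 NCI-H660 array, at -1.0 and -0.98, and the mean over both probe sets of WDR3 was -0.32. Of 30 cytosolic ribosomal proteins 28 lay below 0, with a median of -0.19, and none was called, where 5.08% of all genes were. There, 10 rose in NCI-H660 and none fell, and in PC3 1 fell and none rose, beside the same shares of all genes.

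The E-box CACGTG, which reads the same on both strands, was looked for in RefSeq promoter windows of 300 bases, 250 before and 50 after the gene start (GRCh38.p14). It was present in 7.43% of all 27305 windows and in 10.2% of those of genes at or over 100. Of the c-Myc targets, 20 of 48 with a window (41.7%) held it. Of the opposite genes, 6 of 41 with a window (14.6%) among those lower in PC3 and 5 of 44 (11.4%) among those higher in PC3 held it. The stretches below are those of opposite genes and called c-Myc targets whose site lay within 100 bases before the start or 20 after it, with the E-box in capitals, read 5′ to 3′ on the strand of the gene. They were chosen for the motif after the values were seen, and a match of letters is no evidence of binding.
WDR43, chr2:28894567-28894686, plus strand: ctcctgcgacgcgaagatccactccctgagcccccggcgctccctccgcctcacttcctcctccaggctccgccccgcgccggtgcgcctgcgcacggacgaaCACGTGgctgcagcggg
HSPE1, chr2:197500279-197500378, plus strand: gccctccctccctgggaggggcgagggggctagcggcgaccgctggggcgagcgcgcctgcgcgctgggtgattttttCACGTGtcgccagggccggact
KLF6, chr10:3785210-3785309, minus strand: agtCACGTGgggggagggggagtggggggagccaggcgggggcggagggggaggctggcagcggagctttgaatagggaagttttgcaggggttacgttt
NET1, chr10:5446451-5446550, plus strand: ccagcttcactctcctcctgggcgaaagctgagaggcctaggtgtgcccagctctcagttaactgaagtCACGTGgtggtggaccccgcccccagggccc
MICAL1, chr6:109465969-109466068, minus strand: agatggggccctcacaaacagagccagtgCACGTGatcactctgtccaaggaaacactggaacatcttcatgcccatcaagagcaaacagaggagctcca
SEMA4D, chr9:89495657-89495756, minus strand: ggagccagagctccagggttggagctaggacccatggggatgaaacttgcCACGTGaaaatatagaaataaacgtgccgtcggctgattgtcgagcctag

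The 6 genes carry the same letters and moved in both directions. HSPE1, the mitochondrial cochaperonin whose site lies 22 bases before its start, fell in PC3 from 10968 and 9301 to 5577 and 6560 and stood at 7695 and 8410 against 10751 and 9884 in NCI-H660 (-1.10 ± 0.21). KLF6, a zinc finger factor, had a difference of -1.24 ± 0.15, and NET1, a RhoA exchange factor, one of -1.05 ± 0.14. MICAL1, an actin-oxidizing enzyme, had a difference of 1.89 ± 0.29 and SEMA4D, a semaphorin, one of 1.62 ± 0.24, so that a site near the start was found on both sides of the class.

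Among 33 NF-kB, chemokine and cytokine genes at or over 100, 4 were called below 0 and 1 above 0, where 1.96% and 3.12% of all genes were. In PC3 11 fell and 1 rose (12.6% and 14.5% of all genes), and in NCI-H660 6 fell and 2 rose (15.3% and 15.4%). The median changes were -0.81 in PC3 and -0.35 in NCI-H660. TNFAIP3, the NF-kB feedback inhibitor A20, was at 2528 and 2255 in PC3 vehicle and 521 and 576 at 10 µM, a 4.36-fold fall. In NCI-H660 it was at 353 and 281 against 279 and 253, groups that lay close together (difference -1.88 ± 0.34, adjusted p = 0.00891). IL1B, the cytokine interleukin 1 beta, fell in PC3 from 1331 and 1329 to 240 and 156, 6.7-fold, while NCI-H660 stayed between 69.6 and 125 (-3.21 ± 0.66, adjusted p = 0.017). PTGS2, the inducible cyclooxygenase upstream of PTGES, fell in PC3 from 3957 and 4059 to 110 and 101, 38-fold. Its NCI-H660 signals lay between 1.12 and 25.9, far under 100, and its difference of -7.27 ± 1.89 lost the call in 6 of 8 fits without 1 array. With signals under 100 set to 100 that difference was -5.25.

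The plasminogen activators and matrix proteases had 4 calls below 0 and 1 above 0 among 23 genes (1.96% and 3.12% over all genes). In PC3 4 fell and 3 rose (12.6% and 14.5% of all genes), and in NCI-H660 3 fell and 2 rose (15.3% and 15.4%). PLAU, the urokinase, fell in PC3 from 11739 and 11924 to 2972 and 3064, and in NCI-H660 it was at 214 and 172 against 203 and 173 (-1.94 ± 0.36, adjusted p = 0.0105). Its receptor PLAUR had a difference of -1.37 ± 0.28, and the metalloprotease ADAM19 one of -2.02 ± 0.40. ADAM19 was not called with the mean over its probe sets (-1.31), nor in the fit of the 12 arrays of both lines. MMP1, an interstitial collagenase, went the other way: PC3 rose from 355 and 300 to 5202 and 6025, 17.1-fold, with NCI-H660 under 29 on all 4 arrays. That call was lost without the first NCI-H660 vehicle array or the second at 10 µM, and its difference was 4.03 to 5.07 over the 8 fits.

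HSPB1, a small heat shock protein, fell in PC3 from 9547 and 9028 to 2561 and 2620. NCI-H660 had 13752 and 11700 in vehicle and 19393 and 15760 at 10 µM (-2.30 ± 0.42, adjusted p = 0.00868). BIK, a BH3-only killer protein, fell in PC3 from 1614 and 1409 to 556 and 543 and was at 559 and 488 against 680 and 512 in NCI-H660 (-1.63 ± 0.21, adjusted p = 0.00132). VEGFA, the angiogenic growth factor, fell in PC3 from 3555 and 3218 to 1322 and 1416, with NCI-H660 at 17536 and 14563 against 15810 and 16454 (-1.32 ± 0.20, adjusted p = 0.00291). In each of the 3 the NCI-H660 groups overlapped or lay closer than the PC3 groups. With the mean over its probe sets VEGFA was at -0.87, under the size threshold.

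CCN2, a matricellular growth factor driven by TGF-beta and YAP, rose in PC3 and was not called in NCI-H660. Its signal went from 400 and 355 to 13794 and 13488, 36.1-fold, and in NCI-H660 from 117 and 103 to 147 and 138. The difference was 4.80 ± 0.37 (adjusted p = 6.81e-05). Where the label reads LNCaP, CCN2 rose by 4.32 on the log2 scale (adjusted p = 6.63e-08), and where it reads VCaP it fell by 0.88 (adjusted p = 0.0326). PLEC, the cytolinker plectin, rose in PC3 from 1285 and 1469 to 7524 and 6189, with NCI-H660 at 572 and 512 against 462 and 405 (2.64 ± 0.21, adjusted p = 6.81e-05). DUSP6, the phosphatase that shuts off ERK, rose in PC3 from 2383 and 2366 to 11385 and 11782, with NCI-H660 at 2174 and 1935 against 1886 and 2235 (2.28 ± 0.42, adjusted p = 0.0103). The largest of its 3 probe set differences came from another probe set, which was not called. KRT8, an epithelial keratin, rose in PC3 from 8449 and 8014 to 28006 and 22994 and was at 7502 and 7092 against 6450 and 5792 in NCI-H660 (1.88 ± 0.19, adjusted p = 0.000267).

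KRT8 was 1 of 4 called members among 42 epithelial-mesenchymal and adhesion genes, all above 0 (3.12% over all genes). The others were ID2, ID1 (1.22 ± 0.17) and the mesenchymal filament VIM (1.65 ± 0.41), whose call was lost in 5 of 8 fits without 1 array and after median centering. The list median was 0.16, and 0.01 after median centering, so no direction is given for the list. Of 36 AP-1 and immediate early genes 4 were called above 0 (CCN2, DUSP6, FOS and SPRY1) and 2 below 0 (JUN and KLF6), where 3.12% and 1.96% of all genes were. FOS (2.12 ± 0.61) was not called in any of the 8 fits without 1 array.

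Of these 2 lines NCI-H660 alone raised JUN, the AP-1 subunit, from 2380 and 2649 to 7253 and 6215. PC3 was at 426 and 348 in vehicle and 316 and 407 at 10 µM, groups that overlapped, and the difference was -1.52 ± 0.20 (adjusted p = 0.00168). JUN also rose by 3.16 on the log2 scale where the label reads LNCaP (adjusted p = 8.7e-09) and by 2.94 where it reads VCaP (adjusted p = 2.81e-08), so PC3 was the line without a called rise. TNFRSF21, death receptor 6, rose in NCI-H660 from 419 and 350 to 1411 and 1479, 3.76-fold, and PC3 stayed at 8218 and 7802 against 7216 and 8110 (-1.98 ± 0.18, adjusted p = 0.000176). KBTBD8, an adaptor of a CUL3 ubiquitin ligase, rose in NCI-H660 from 42.3 and 77.2 to 460 and 417, at least 4.39-fold, with PC3 between 99.9 and 127 (-2.83 ± 0.35, adjusted p = 0.00119). With signals under 100 set to 100 the KBTBD8 difference was -2.03. KBTBD8 also rose by 1.17 on the log2 scale where the label reads LNCaP (limma adjusted p = 0.00319), with no called change where it reads VCaP. The elongation factor ELL2 rose in NCI-H660 from 16.1 and 64.5 to 198 and 232, at least 2.15-fold, with PC3 between 1990 and 2199 (-2.83 ± 0.59, adjusted p = 0.0189). With signals under 100 set to 100 the ELL2 difference was -1.20, with 1 array left out it ran from -3.83 to -1.83, and in the fit of the 12 arrays of both lines it was not called (adjusted p = 0.163). HSPA6, an inducible heat shock protein, went from 289 and 192 to 2696 and 1276, but its call was lost in 7 of 8 fits without 1 array.

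BEGAIN, a scaffold protein of synapses, was lost in NCI-H660 alone and kept its call with each array left out in turn. It fell in NCI-H660 from 1605 and 1351 to 203 and 173, 7.86-fold, while PC3 had 75.3 and 86.6 in vehicle and 118 and 111 at 10 µM (3.48 ± 0.47, adjusted p = 0.00178). FJX1 fell in NCI-H660 from 482 and 592 to 37.9 and 14.8, at least 5.37-fold, with PC3 at 1785 and 1644 against 1338 and 1256 (4.09 ± 0.96, adjusted p = 0.0343). Its call was lost without the second NCI-H660 array of either group, and with signals under 100 set to 100 its difference was 2.01. On the arrays labelled LNCaP and VCaP, FJX1 fell as well, with log2 changes of -4.20 and -2.88 (limma adjusted p = 0.000391 and 0.00905). The amino acid transporters SLC36A1 (1.23 ± 0.27) and SLC1A1 (1.11 ± 0.18) fell in NCI-H660 alone, the first from 1902 and 2347 to 711 and 842 and the second from 555 and 548 to 262 and 264. SLC1A1 was not called after median centering, and SLC36A1 was not called in the fit of the 12 arrays of both lines (limma adjusted p = 0.106). BLNK and CD300LF, adaptor and receptor genes of blood cells, fell in NCI-H660 from 201 and 249 to 26.9 and 46.3 and from 281 and 287 to 33.9 and 52.2, with PC3 under 100 throughout. BLNK also fell on the arrays labelled LNCaP and VCaP, with log2 changes of -2.67 and -3.22 (limma adjusted p = 0.000263 and 9.79e-05). BEGAIN and CD300LF had no called change there.

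**Figure D4:**
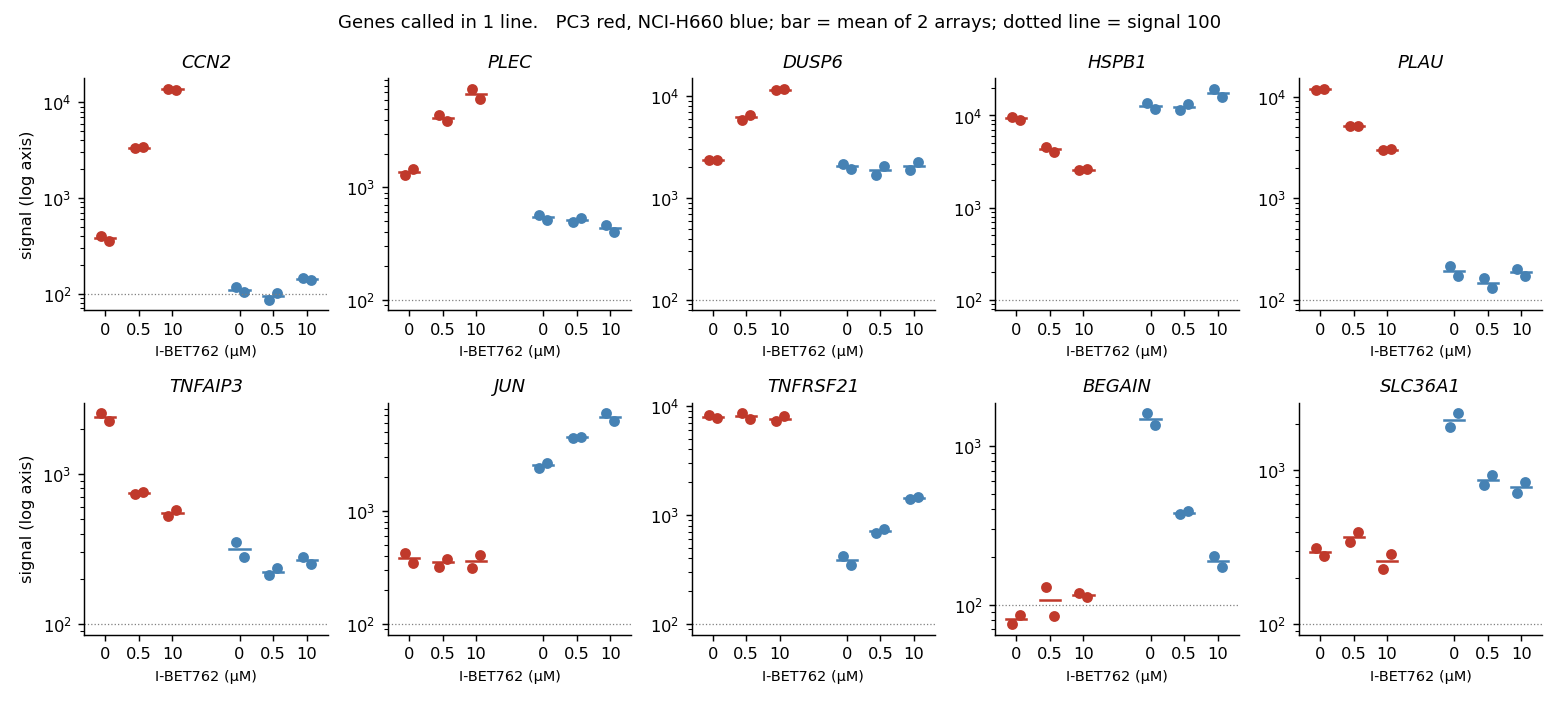
Signal on each array (log axis) of 10 genes called in 1 line, in PC3 (red) and NCI-H660 (blue) at 0 (vehicle), 0.5 and 10 µM I-BET762, with bars at the mean of the 2 arrays. CCN2, PLEC and DUSP6 rose and HSPB1, PLAU and TNFAIP3 fell in PC3, while JUN and TNFRSF21 rose and BEGAIN and SLC36A1 fell in NCI-H660.

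Sterol and fatty acid synthesis was another list with a difference mainly below 0. Among 30 genes 24 lay below 0, the median was -0.51 (-0.13 in PC3 and 0.33 in NCI-H660), and 4 were called below 0 and 1 above 0 (1.96% and 3.12% over all genes). In NCI-H660 10 rose and 3 fell (15.4% and 15.3% of all genes), against 3 rises and 8 falls in PC3 (14.5% and 12.6%). ACAT2, a thiolase at the start of sterol synthesis, fell in PC3 from 3147 and 2684 to 2011 and 2151 and rose in NCI-H660 from 2278 and 2440 to 3719 and 3275 (-1.05 ± 0.16, adjusted p = 0.00334). HMGCS1, which makes HMG-CoA, fell in PC3 from 1156 and 1155 to 564 and 467, with NCI-H660 at 1211 and 1251 against 1650 and 1882 (-1.69 ± 0.40, adjusted p = 0.034). ELOVL6, a fatty acid elongase, fell in both lines and more in PC3 (-1.50 ± 0.23). ABCG1, a sterol exporter, rose in both and more in PC3 (1.23 ± 0.27). With the mean over their probe sets ELOVL6 (-1.11) and ABCG1 (1.15) were not called. The size of ACAT2 fell under the threshold in 4 of 8 fits without 1 array, HMGCS1 lost its call in 1 of 8 and ABCG1 in 1 of 8, and with signals under 100 set to 100 ABCG1 was at 0.45 and not called.

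Cell cycle genes had few called differences. No mitosis gene of 64 had a called difference, where 5.08% of all genes did. Of the 64, 35 fell in PC3 and 21 in NCI-H660 (12.6% and 15.3% of all genes), with medians of -0.41 and -0.28. Of 56 DNA replication genes 42 lay below 0, with a median of -0.18. There, 17 fell and 3 rose in PC3 (12.6% and 14.5% of all genes), and 8 fell and 9 rose in NCI-H660 (15.3% and 15.4%). The single call was TIPIN, a fork protection factor, which fell in PC3 from 1638 and 1909 to 774 and 969 and rose in NCI-H660 from 850 and 954 to 1425 and 1317 (-1.64 ± 0.21, adjusted p = 0.00139). Replication-dependent histone genes rose in both lines. Of 32 genes 29 rose in PC3 and 23 in NCI-H660 (14.5% and 15.4% of all genes) and none fell. A called difference above 0 was found for 3 (3.12% over all genes). H2AC8 rose from 344 and 332 to 4228 and 4444 in PC3 and from 326 and 314 to 1665 and 1569 in NCI-H660, folds of 12.8 and 5.05 (1.35 ± 0.15, adjusted p = 0.000642). H3C2 rose in PC3 from 64.7 and 86.5 to 1276 and 1303 (3.24 ± 0.43, adjusted p = 0.00157). Histone genes are near copies of each other, and signals of single members may be shared among them.

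Neurosecretory and neuronal marker genes, the list closest to the identity of NCI-H660, had 6 calls above 0 and 1 below 0 among 48 (3.12% and 1.96% over all genes), and 2 above 0 and 2 below 0 after median centering. The list median was 0.16, or 0.01 after that centering, so the list as a whole has no settled direction. NEFL, a neurofilament, rose in PC3 from 914 and 1071 to 1812 and 2271 and was at 300 and 241 against 237 and 195 in NCI-H660 (1.36 ± 0.26, adjusted p = 0.0127). The neuropeptide GAL fell in PC3 from 3222 and 3308 to 1410 and 1460, with NCI-H660 at 77.3 and 118 against 120 and 101 (-1.39 ± 0.34), a call lost in 3 of 8 fits without 1 array. With the mean over their probe sets NEFL (0.80) and GAL (-0.77) were not called, nor in the fit of the 12 arrays of both lines.

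**Figure D5:**
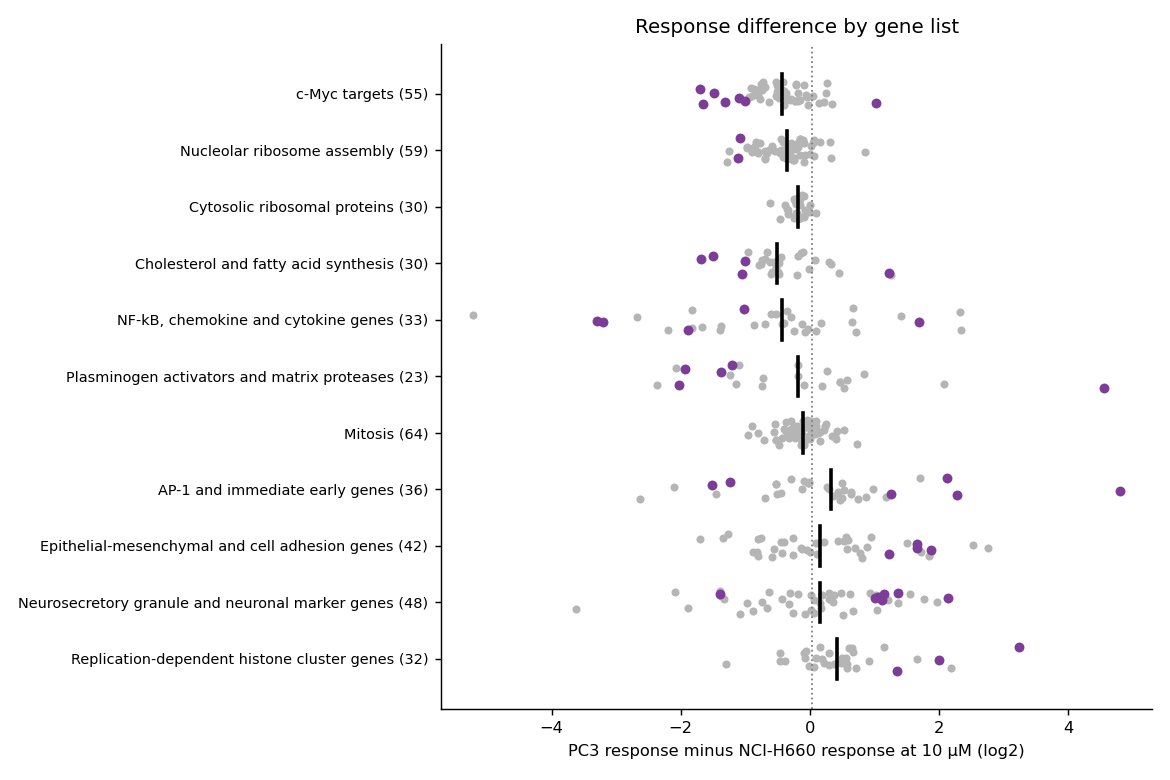
Response difference at 10 µM (log2, PC3 minus NCI-H660) of each member at or over 100 of 11 gene lists, with the number of members in brackets. Purple points are called genes, black bars are list medians, and the dotted line is the median of all genes at 0.03. The c-Myc targets, nucleolar genes and sterol genes lie mostly to the left.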

How the data were processed

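RNA of 4 prostate cancer lines, treated for 24 h with vehicle, 0.5 or 10 µM I-BET762, was measured on 24 Affymetrix U133 Plus 2.0 arrays, 2 biological replicates a group by the labels. The authors deposited MAS5 signal intensity values, scaled to an array target of 500. Over the 8 arrays compared, 45.98 to 50.05% of probe sets had a signal of at least 100. Replicates of PC3 and NCI-H660, with the 0.5 µM arrays included, correlated at 0.9338 to 0.9528 (Pearson r of log2 signals across probe sets). With 2 arrays a group their number limits the precision. P-values measure the spread between replicate cultures of the same line and dose, pooled over the 12 groups of all 4 lines.

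Log2 signals of 54613 probe sets (62 controls left out) were fitted in limma 3.58.1 (R 4.3.3) with 1 mean for each of 12 groups, giving 12 residual degrees of freedom. The response difference was tested as an interaction contrast. Calls needed a Benjamini-Hochberg adjusted p under 0.1 over all probe sets, over 1 on the log2 scale and, in any of the 4 groups, a mean of 100 or more. In folds, signals under 100 count as not measured, and "at least" folds replace them by 100. Differences, SE and p-values used all signals as deposited, also those under 100, unless signals under 100 set to 100 are named. A gene was its probe set with 1 symbol and the highest mean log2 signal. Of the probe sets, 41091 had 1 symbol, 1801 several and 11721 none. Named were MYC and other regulators set by hand, the largest differences of each class among genes whose treated and vehicle arrays did not overlap (up to 8 in each direction for opposite genes, 5 or 3 for the others) and up to 4 called members a list. Others (HSPE1, KLF6, NET1, MICAL1, SEMA4D, TBRG4, MAX, MXI1, and further members of short counts) were chosen after their values were seen. Members and gene lists were chosen with earlier results of these data known. On simulated data of 54613 probe sets, 100 changes of each size were set into the response difference. Of changes of 1.5 (log2) 81% and of changes of 2 (log2) 89% were called, with 14 false calls. The simulation scored the response difference and not the change within each line, so it does not bear on the opposite class. Alternatives covered the floor, scaling, variance trend, arrays fitted, replicate block, threshold, probe set choice and each array left out.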

Additional observations from a re-analysis of the deposited data

Results flagged for a closer look

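In 17 genes, named by the rule on opposite responses, the effect of 10 µM I-BET762 had opposite signs in the 2 lines and the difference itself passed the test in limma. Those lower in PC3 and higher in NCI-H660 were TMEM158 at -3.78, LIPG at -2.63, PTGES at -2.48, ERRFI1 at -2.46, CLDN1 at -2.41, NOX5 at -2.39, TMEM37 at -2.36, CAPS at -2.33 and MYC at -1.73 on the log2 scale. Those higher in PC3 and lower in NCI-H660 were SLC60A1 at 3.11, BFSP1 at 2.91, ARG2 at 2.89, ADGRV1 at 2.38, TRIOBP at 2.29, TNIK at 2.13, ABAT at 2.03 and SH3BGR at 2.02. Adjusted p of the difference ran from 1.47e-06 for ERRFI1 and ARG2 to 0.00974 for SH3BGR. The opposite sign also rests on the change within each line, which could be weaker. In NCI-H660 that change was near the limit for ARG2 (-0.32, limma adjusted p = 0.0667) and ADGRV1 (-0.71, limma adjusted p = 0.0686), and for PTGES as given above. The mean over all probe sets of the gene turned the sign of TMEM37 to 0.68.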

How the results depend on the processing

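Limits are set by 2 arrays a group and by signals near background. With signals under 100 set to 100, the probe sets called at 10 µM went from 1418 to 2238 (1025 shared), opposite genes from 102 to 159 (101 shared), the NCI-H660 response from 8046 to 12631 probe sets and the 0.5 µM difference from 242 to 774. At 0.5 µM median centering gave 149, an intensity trend 396 and an adjusted p under 0.05 122. The latter left 65 opposite genes. The fit of PC3 and NCI-H660 alone called 913 probe sets at 10 µM and 45 at 0.5 µM. The 8 arrays alone called 101, with 7 opposite genes, 2806 probe sets for PC3 (6939 in the 12-group fit) and 4126 for NCI-H660, and MYC at -1.73 (adjusted p = 0.101) lost its call. The cause of these shifts was not tested, apart from fewer arrays in the last 2. With each array left out the count was 1085 to 1429, opposite genes 64 to 96, PC3 4477 to 6670, NCI-H660 5034 to 8393, the 0.5 µM difference 159 to 271 and MYC -1.80 to -1.65. Opposite genes numbered 64 without NCI-H660 10 µM replicate 1, PC3 probe sets 4477 and 4483 without PC3 vehicle replicate 1 or 2, NCI-H660 probe sets 5119, 5034 and 5358 without vehicle replicate 2, 10 µM replicate 1 or 10 µM replicate 2, and the 0.5 µM difference 159 without NCI-H660 vehicle replicate 1.

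Reversed signs came from weak or discordant probe sets. NOP14-AS1 was at -0.02 with signals under 100 set to 100 and at -0.43 with the mean over its probe sets, which gave TMEM37 0.68 and BOK -0.05. The probe set with the largest difference gave BOK -1.13, HBEGF 2.35 and NPC1 2.36.

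Equal replicate numbers did not pair the samples: between the 4 groups the correlation of replicate differences ran from -0.05 to 0.04. With the replicate block 1393 probe sets were called (1341 shared) and 103 opposite genes (98 shared), and 104 of 110 named genes stayed called.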

Other observations

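HEXIM1, an inhibitor of P-TEFb, rose in PC3 from 2403 and 2483 to 4573 and 4888 and in NCI-H660 from 694 and 778 to 2682 and 2640, changes of 0.95 and 1.86, and its difference of -0.90 (limma adjusted p = 0.01) was under the size threshold. The BET genes BRD2 and BRD3 had differences of 0.41 and 0.08 without a call. Of 22 genes of the BET proteins, P-TEFb and pausing factors, ELL2 had the single call, where 5.08% of all genes were called. Among 40 autophagy and lysosome genes 15 rose in each line (14.5% of all genes rose in PC3 and 15.4% in NCI-H660), with 4 differences called below 0 and 1 above 0 (1.96% and 3.12% over all genes). Among 45 interferon response genes 17 fell in PC3 and 22 in NCI-H660 (12.6% and 15.3% of all genes). Their differences were called below 0 for 3 and above 0 for 2 (1.96% and 3.12% over all genes). None of 20 genes of Polycomb complex 2 and DNA methylation had a called difference, where 5.08% of all genes did.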
